A study of Mus musculus with 4 samples.

Results

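The genes described here are 10 C-type lectin genes of leukocytes: Cd209a, Cd209d, Cd209f, Cd209g, Mrc1, Clec10a, Mgl2, Clec4n, Clec4e and Clec4d. They were taken as a fixed list of names, and all 10 were listed in each of the 4 libraries, among 19491 genes listed in any of them. The libraries hold CD45+ cells sorted from the brain or the dura mater of C57BL/6J mice aged 8 weeks, on day 3 after a sham operation (S3, labelled CT by the submitters and taken here as the sham) or after photothrombotic injury (D3, labelled INJ), a light-induced clotting of vessels under the skull. The cells were sequenced with the 10x Chromium 3' v3 chemistry, 1 library for each condition, and the sources used here do not give how many mice went into a library. No test between conditions was therefore possible, and every interval below covers counting error only. The 4 libraries kept between 2603 and 4438 cells, and 3 to 11 cell barcodes were shared between any pair of them. Levels are UMIs of a gene per 1000000 UMIs of a class of cells in a library (CPM).

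C-type lectins are receptors whose lectin domain typically binds sugars with the help of calcium. Some, such as the mannose receptor, take up glycoproteins and feed them to endosomes, whereas others, such as Dectin-2 and Mincle, pair with the Fc receptor gamma chain and signal through Syk and Card9 to cytokine genes. Tissue macrophages and dendritic cells are known for the uptake receptors, and granulocytes and inflammatory monocytes for the Mincle group.

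Classes of cells were set by clustering without the 10 members and 37 other listed C-type lectin genes. The classes are called X-like from marker genes that held none of the 10 members. For each class described below, none of its listed defining markers was at 0 in the libraries where it is used. Cluster 6, with 760 cells, is called by its number: all 10 cDC2 markers were detected in it (mean log2 fold 1.82 over all other cells), but the Lyve1- macrophage list, which holds MHC class II genes that dendritic cells also use, scored 2.28 and had 3 genes among its top 10 against 1 of the cDC2 list. The border macrophage list scored -2.3 in the same cells. The clustering left 7 clusters unnamed, among them cluster 11 with 465 cells that carried Lyve1+ macrophage markers beside T cell markers, and cluster 22 with 156 cells. Both held lectin UMIs, and their values are given below for some of the genes. Cells of cluster 11 had a median of 20967 UMIs, against 11106.5 in the Lyve1+ macrophage-like cluster.

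**Figure D1:**
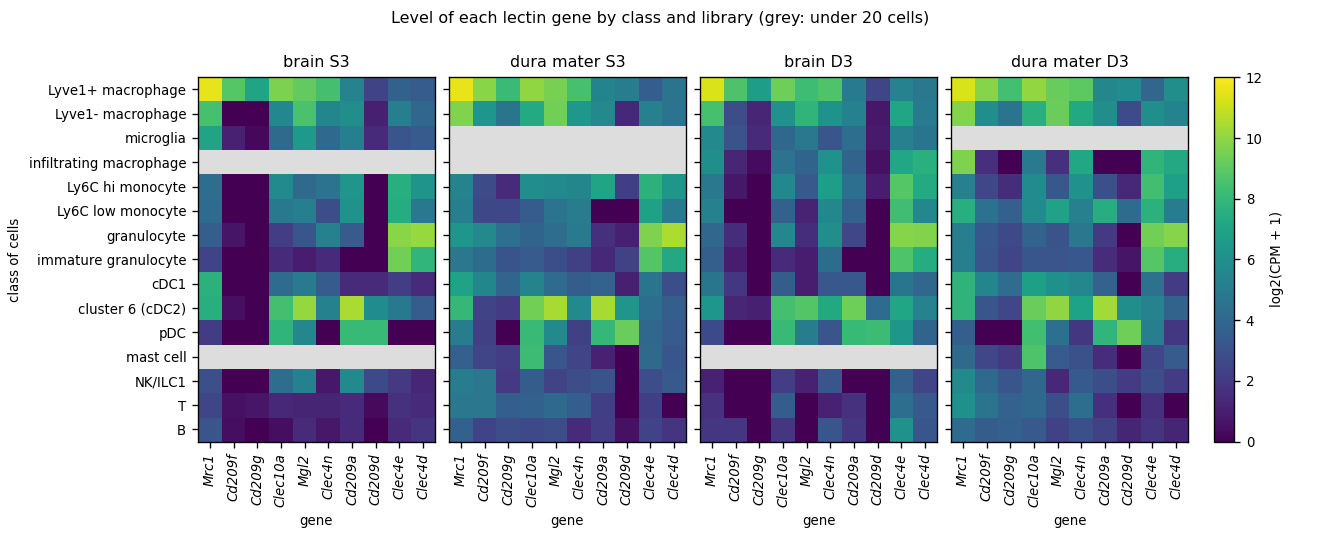
Level of each of the 10 genes as log2(CPM + 1), by class of cells in rows, gene in columns and library in panels, with classes under 20 cells in grey. Mrc1, Cd209f, Cd209g and Clec4n were highest in Lyve1+ macrophage-like cells, Cd209a in cluster 6, Cd209d in pDC-like cells, and Clec4e and Clec4d in granulocyte-like cells, in all 4 libraries among the rows shown.

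Each gene had the same leading class in all 4 libraries when the named classes and cluster 6 were ranked, and the counting interval of the leading class did not overlap that of the next class for any gene in any library. Mrc1, which encodes the mannose receptor CD206, led in Lyve1+ macrophage-like cells at 3020 CPM (brain S3), 3083 (dura mater S3), 2558 (brain D3) and 2548 (dura mater D3). A UMI of Mrc1 was seen in every such cell of both brain libraries and in 99.63% (S3) and 99.26% (D3) of those of the dura mater, against, in the order above, 1.88%, 16.13%, 1.527% and 13.33% of T-like cells, a type that should lack it. The T-like shares were higher in both dura mater libraries than in the brain. Lyve1- macrophage-like cells came next at 361, 833.8, 358.4 and 865.3 CPM in the same order. The unnamed cluster 11 lay between these levels, at 1356, 1582, 1047 and 1161 CPM. Mir511 lies within Mrc1 on the same strand, and its reads were not told apart.

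Cd209f and Cd209g, mouse relatives of the human dendritic cell lectin DC-SIGN, were found mainly in Lyve1+ macrophage-like cells. Cd209f stood at 453.8 (brain) and 938.2 CPM (dura mater) at S3 and at 399.1 and 893.8 at D3. Cd209g likewise had 128.7 and 290.6 CPM at S3 and 106 and 344 at D3. For both genes the dura mater libraries were the higher ones at S3 as well as at D3. These cells held 60.14% to 75.63% of a library's Cd209f UMIs and 60.48% to 75.2% of its Cd209g UMIs. The unnamed cluster 11 was second, with 92.87, 435.5, 101.9 and 296.3 CPM of Cd209f (brain S3, dura mater S3, brain D3, dura mater D3), which made up 36.56%, 24.58%, 15.42% and 16.78% of the library's UMIs. Its Cd209g level was 27.32, 137.4, 11.93 and 104.2 CPM. In Lyve1- macrophage-like cells of brain S3 there were 0 UMIs of Cd209f, with an upper counting limit of 1.316 CPM. Those of the dura mater had 78.26 CPM at S3 and 58.74 at D3, with 29.38% and 17.9% of these UMIs in 1 cell. A Cd209f UMI was seen in 8.458% and 10.8% of those dural cells, and in 9.677% and 15.0% of dural T-like cells, whose levels were 25.8 and 23.35 CPM. The share of cells was thus not above that of T-like cells, although the level was, and the part of free RNA in these values was not tested.

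Within the Lyve1+ class, the genes marked some of the cells and not others. A Cd209f UMI was seen in 34 of 95 cells (brain S3), 128 of 267 (dura mater S3), 42 of 132 (brain D3) and 212 of 408 (dura mater D3), which is 35.79% (Clopper-Pearson 95% interval 26.21 to 46.28), 47.94% (41.81 to 54.11), 31.82% (23.99 to 40.49) and 51.96% (46.99 to 56.9). With each cell thinned to 2000 UMIs the shares were 30.85%, 40.6%, 25.0% and 39.46%. Cells with a Cd209f UMI held a median of 7.5, 14.0, 8.0 and 14.5 of them. Cd209g was seen in 73.53%, 78.91%, 59.52% and 81.6% of the cells with Cd209f, but in 0, 5, 0 and 2 cells without it, of 61, 139, 90 and 196. The cells with and without Cd209f were sequenced to similar depth, with median UMIs of 8803.5 against 8919 (brain S3), 11924 against 10376 (dura mater S3), 7797.5 against 7125.5 (brain D3) and 15311 against 13599.5 (dura mater D3). Cd209g was thus seen almost only beside Cd209f. Mrc1 did not split in this way: cells with and without Cd209f had 3641 and 2689 CPM of Mrc1 in brain S3, and 2549 and 2546 in dura mater D3.

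**Figure D2:**
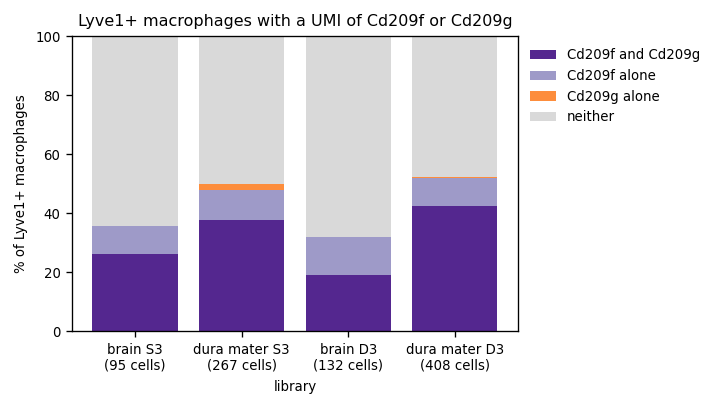
Share of Lyve1+ macrophage-like cells in each library, in percent, with UMIs of Cd209f and Cd209g, of Cd209f alone, of Cd209g alone or of neither. Cells with Cd209g alone were 0.0%, 1.873%, 0.0% and 0.4902% of the class.

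The genes are neighbours. Cd209f (chr8:4102787-4105835, minus strand) and Cd209g (chr8:4134098-4137707, plus strand; GRCm38, GENCODE vM21) lie 28.3 kb apart on opposite strands with 0 coding genes between them. Their RefSeq promoters, 250 bases before the start, had 78.8% identical bases, where the median of 28 pairs of members was 47.6%, and held an identical run of 154 bases. The part of each window upstream of the first exon of the coding transcript is shown because the genes appear in the same cells. For Cd209g it lies within a non-coding transcript with a retained intron, which starts at the outer end of the gene given above. Capitals mark the 83 bases of the shared run that lie in both parts shown, and the last g printed for Cd209g also belongs to the run (GRCm38.p6, 5′ to 3′ on the gene's strand):
Cd209f chr8:4105836-4106014 minus: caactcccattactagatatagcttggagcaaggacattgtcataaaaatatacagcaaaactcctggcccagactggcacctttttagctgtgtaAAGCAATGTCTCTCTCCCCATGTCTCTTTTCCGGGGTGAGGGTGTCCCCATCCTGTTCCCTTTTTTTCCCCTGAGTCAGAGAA
Cd209g chr8:4134486-4134651 plus: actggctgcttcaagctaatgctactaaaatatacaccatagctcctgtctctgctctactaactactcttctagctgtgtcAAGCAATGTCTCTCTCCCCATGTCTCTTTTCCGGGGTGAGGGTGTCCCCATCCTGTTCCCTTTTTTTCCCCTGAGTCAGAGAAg
The run holds a match to the AP-1 motif TGANTCA, 83 bases before the RefSeq start of Cd209f and 97 before that of Cd209g. Of 32851 mouse promoters of this length, 6.75% hold such a match on either strand, and of the 8 members with a promoter entry only this pair does. The match is a description and not a shown binding site. Reads of the genes could be told apart, since the last 500 bases of their transcripts share no run over 29 bases.

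Cd209a, the mouse gene usually called DC-SIGN, is known from dendritic cells and from monocytes that become them. Its level in cluster 6 was 1410 CPM (brain) and 1358 (dura mater) at S3 and 647.6 and 1290 at D3, and these cells held 65.75% to 70.53% of each library's Cd209a UMIs. A UMI was seen in 92.54%, 90.12%, 61.28% and 86.51% of them, against at most 3.226% of T-like cells. Brain D3 was the low library, and the other 3 lay close together. pDC-like cells came next with 267.4, 255.1, 270.3 and 238.9 CPM, from 24 to 41 cells. Cd209d, which encodes the lectin SIGNR3, had its highest level in pDC-like cells, with 277.3, 621.2, 300 and 653.5 CPM in the same order, the dura mater being higher at S3 and at D3. Single cells held up to 42.86% of these UMIs. In Lyve1+ macrophage-like cells Cd209d had 4.516, 33.45, 4.608 and 53.74 CPM, high in both dura mater libraries, and there it followed Cd209f: cells of dura mater D3 with Cd209f had 95.67 CPM of Cd209d and cells without it 2.273. A Cd209d UMI was seen in only 53 of these 408 dura mater D3 cells, and 1 cell held 28.16% of the UMIs.

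Clec10a and Mgl2 encode the galactose-type lectins MGL1 and MGL2 and lie 18.6 kb apart on chromosome 11. The last 500 bases of their transcripts share an identical run of 106 bases, so that some reads could belong to either, and their values are uncertain to that extent. They nevertheless had different leading classes. Clec10a led in Lyve1+ macrophage-like cells with 785.7, 1021, 645.2 and 1055 CPM, followed by cluster 6 with 354.6, 686.9, 354 and 608.8. Mgl2 led in cluster 6 with 1115, 1396, 445.4 and 1042 CPM, and was at 550.9, 747.4, 313.4 and 585 in Lyve1+ macrophage-like cells. Clec10a was also seen in dural mast cell-like cells at 294.1 (S3) and 411.4 CPM (D3), where Mgl2 had 8.235 and 9.726. In pDC-like cells it had 231, 266.8, 281.1 and 333.9 CPM.

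Clec4n, which encodes the fungal mannan receptor Dectin-2, led in Lyve1+ macrophage-like cells at 347.7, 368.3, 411.1 and 496.7 CPM. Cluster 11 had 142.8, 210.5, 235.9 and 244.4 CPM, and cluster 22 had 370.1 in brain D3. Clec4e encodes Mincle, a receptor of mycobacterial cord factor and of a protein set free by dead cells, and Clec4d encodes MCL, its partner on the membrane. In granulocyte-like cells Clec4e stood at 947.1 CPM (brain) and 808.8 (dura mater) at S3 and at 904 and 685 at D3. Clec4d in the same cells had 1143, 1448, 856.5 and 903.2 CPM, the D3 library of each tissue being the lower. The unnamed cluster 22, of which 138 cells came from brain D3, had 2198 CPM of Clec4e, above the granulocyte-like cells, and 683.9 of Clec4d there.

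Likeness between genes was described over 57 units, each a class of cells in a library with at least 50 cells, among 12098 genes. The units share 4 libraries, so the correlations are descriptions. Cd209f and Cd209g were each other's closest gene (Pearson's r of log2(CPM + 1) 0.961), followed for both by Pla2g2d, a secreted phospholipase, and Ccl8, a chemokine of tissue macrophages. Clec4d and Clec4e had r 0.914. Closest to Clec4e were Trem1 (0.951), Slc7a11 (0.939) and Gda (0.939), to Clec4d also Arg2 (0.914) and Csf3r (0.912), and to Mrc1 were Cd163 (0.932), Dab2 (0.905) and Sult1a1 (0.902). Clec4b1 (0.876), Batf3 (0.853) and Flt3 (0.851) were closest to Cd209a, Cd209c (0.807), Zbtb46 (0.792) and Adgra2 (0.772) to Cd209d, Pltp (0.861), Ifi204 (0.842) and Ifi207 (0.84) to Clec4n, Ccl2 (0.874), Sh3pxd2b (0.866) and Fgfr1 (0.849) to Clec10a, and Ccnd1 (0.876), Ctnnd2 (0.854) and Mxra7 (0.841) to Mgl2.

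The lectins separated Lyve1+ from Lyve1- macrophage-like cells, a comparison within each library. Counting a gene as past 2-fold when log2 of the CPM ratio was at least 1 either way and both groups together had at least 100 UMIs, 26 of 37 member and library pairs were past it, 22 higher in Lyve1+ cells and 4 lower. Among all genes 13.7% of such pairs were past it, 9.0% higher and 4.67% lower. The other C-type lectin genes had 24 of 53 pairs past it (45.3%), 10 higher and 14 lower. Their share past it was thus also above that of all genes, but lower pairs outnumbered higher ones. Both classes were clustered from these cells, and the members were chosen with earlier results of these data known, so this is a description. The log2 ratio of Mrc1 was 3.06 (2.96 to 3.17) for brain S3, 1.89 (1.82 to 1.96) for dura mater S3, 2.84 (2.73 to 2.94) for brain D3 and 1.56 (1.51 to 1.61) for dura mater D3. Clec10a differed by 4.03, 2.67, 3.28 and 2.41 and Clec4n by 2.99, 2.16, 2.56 and 1.67 in that order, each ratio being larger in the brain library than in the dura mater library of the same day. Cd209f was higher by 8.73 on the log2 scale in brain S3 with a floor of 3 UMIs for the Lyve1- cells. Its counting interval there began at 8.42, and it was higher by 3.58, 6.04 and 3.93 in the other libraries. Cd209g was higher by 6.91 in brain S3 with the same floor, and by 3.59, 6.22 and 3.86 in the other libraries. Cd209d, comparable in the dura mater only, was higher by 4.37 at S3 and 3.18 at D3. Mgl2 stayed within 2-fold in all 4, at 0.57, 0.11, 0.46 and -0.07. Clec4e was the member that was lower in Lyve1+ cells, by -1.43, -1.73, -1.84 and -2.07, from 11 to 86 UMIs in those cells. At S3 its direction turned under some other settings, to 2.38 in brain S3 and 0.88 in dura mater S3 at most.

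**Figure D3:**
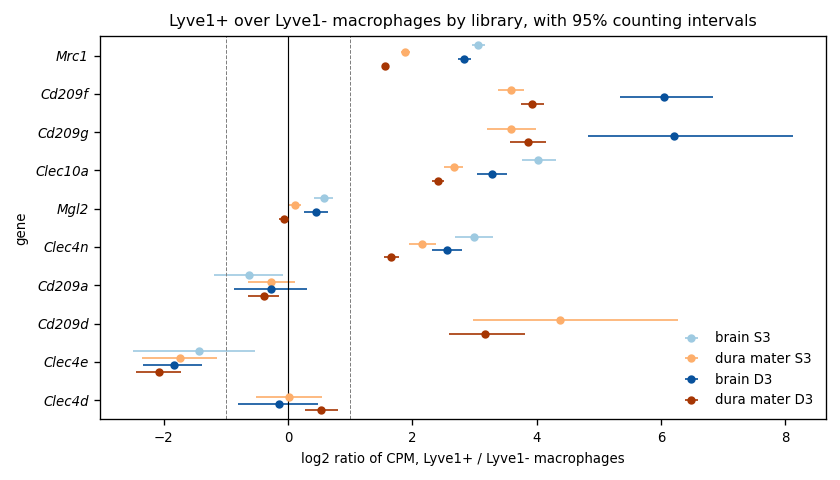
Log2 ratio of CPM of each gene in Lyve1+ over Lyve1- macrophage-like cells, with 95% counting intervals and 1 point for each library, for genes with at least 100 UMIs and none at 0. Mrc1, Clec10a, Clec4n, Cd209f and Cd209g lay past 2-fold (dashed lines) in every library plotted, Clec4e lay below 0, and Mgl2 lay between the dashed lines.

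The comparison of D3 with S3 brain asked how the lectins of each class differed after injury. Over all classes 20 of 51 member and class pairs were past 2-fold, 9 higher and 11 lower at D3, where all genes gave 4.55% of pairs past it, 2.47% higher and 2.08% lower. Without pairs in which 1 cell held over 20% of the UMIs, 16 of 40 were past it. The largest set was in cluster 6, the cells with cDC2 markers, with 7 of 8 members past 2-fold against 6.01% of all genes there. Cd209a, from 1410 to 647.6 CPM, differed by -1.12 on the log2 scale (-1.19 to -1.06), Cd209d by -1.73 (-2.12 to -1.34), Mgl2 by -1.32 (-1.40 to -1.24) and Mrc1, from 183.8 to 78.46 CPM, by -1.23 (-1.42 to -1.03). The Mincle group went the other way: Clec4e, from 27.5 to 133.2 CPM, differed by 2.28 (1.91 to 2.66), Clec4d by 1.93 (1.33 to 2.59) and Clec4n, from 37.34 to 154.9 CPM, by 2.05 (1.74 to 2.38). Clec10a was level, at 354.6 and 354 CPM. Hence the uptake lectins other than Clec10a were lower and the Syk-coupled lectins higher in the same cluster.

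Markers of other cells moved with these values. In cluster 6 of the brain the summed level of the 10 monocyte markers was 1071 CPM at S3 and 2390 at D3, and that of the 10 infiltrating macrophage markers 1431 and 2877, while Flt3, a receptor of dendritic cell development, stood at 74.28 and 71.21 CPM and Zbtb46 at 17.65 and 13.05. In the dura mater the monocyte markers were at 1265 and 1487 CPM. The part of these markers in the lectin values was not tested. Among the cluster 6 cells with a Flt3 UMI, 83 at S3 and 182 at D3 and chosen after the values were seen, Cd209a stood at 1419 and 678.3 CPM, Mgl2 at 1028 and 344.7, Clec4e at 15.65 and 112.8 and Clec4n at 26.74 and 99.63, each difference keeping its direction and staying past 2-fold. The monocyte and infiltrating macrophage markers were not measured in this subset, so their part in these values was not tested.

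In the brain's Ly6C hi monocyte-like cells 4 of 6 members were past 2-fold, against 5.91% of genes. Clec4n had 22.96 CPM at S3 and 104 at D3, a log2 ratio of 2.18 (1.82 to 2.56), and Clec4e 184.6 and 452 CPM, a ratio of 1.29 (1.16 to 1.43). Clec4d differed by 1.15 and Cd209a by -1.93, from 76.43 to 20.01 CPM. Only 13.16% and 4.934% of these cells had a Cd209a UMI. The summed level of the 10 granulocyte markers in this class was 3020 CPM at S3 and 5822 at D3, and its part in the Clec4e and Clec4d values was not tested. In microglia-like cells Clec4e had 7.888 and 36.32 CPM and Clec4d 10 and 24.37, ratios of 2.20 and 1.28, beside summed markers of granulocytes at 1366 and 3132 CPM, of infiltrating macrophages at 1859 and 6744 and of monocytes at 127 and 382.2, whose part was not tested. Mrc1 in the same class had 126.2 and 49.21 CPM, from 21.71% and 20.6% of cells. In Lyve1- macrophage-like cells 1 of 7 members was past 2-fold, Clec4e with 33.53 and 138.2 CPM (2.04, 1.72 to 2.38).

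In Lyve1+ macrophage-like cells of the brain 0 of 6 members was past 2-fold, near the 1.57% of genes that were. The member ratios ran from -0.81 for Mgl2 to 0.24 for Clec4n, and Cd209f (-0.19, -0.38 to 0.01) and Cd209g (-0.28, -0.67 to 0.11) had intervals that included 0. Of the 12 cytokine genes known as targets of these receptors, 7 could be compared in these cells and 4 were past 2-fold, all higher at D3. They were Cxcl2, a neutrophil chemokine (1.93), Il1b (1.26), Ccl4 (1.2) and Tnf (1.17). Beside them the summed monocyte markers of the class stood at 48.54 CPM at S3 and 186.2 at D3 and Ly6c2 at 3.387 and 18.43, and their part was not tested. In NK/ILC1-like cells Cd209a had 52.25 CPM at S3, of which 1 cell held 27.46%, and 0 UMIs at D3, with an upper counting limit of 4.291 CPM. With a floor of 3 UMIs at D3 that difference was -3.90 on the log2 scale, and it turned to 0.81 when doublets were kept. The other pairs past 2-fold were Mgl2 in NK/ILC1-like (-5.03), microglia-like (-1.70) and proliferating (-1.37) cells and Mrc1 in cDC1-like cells (-3.13, 23 and 49 cells). These Mgl2 values rest on few cells. At S3 its UMIs came from 7 of 330 NK/ILC1-like cells, with 33.98% in 1 cell, and 26 of 433 microglia-like cells, with 23.45% in 1 cell. In proliferating cells 1 cell held 27.27% of the D3 UMIs. The proliferating class was named from Mki67, Top2a and others and not by lineage, so it can mix cell types.

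**Figure D4:**
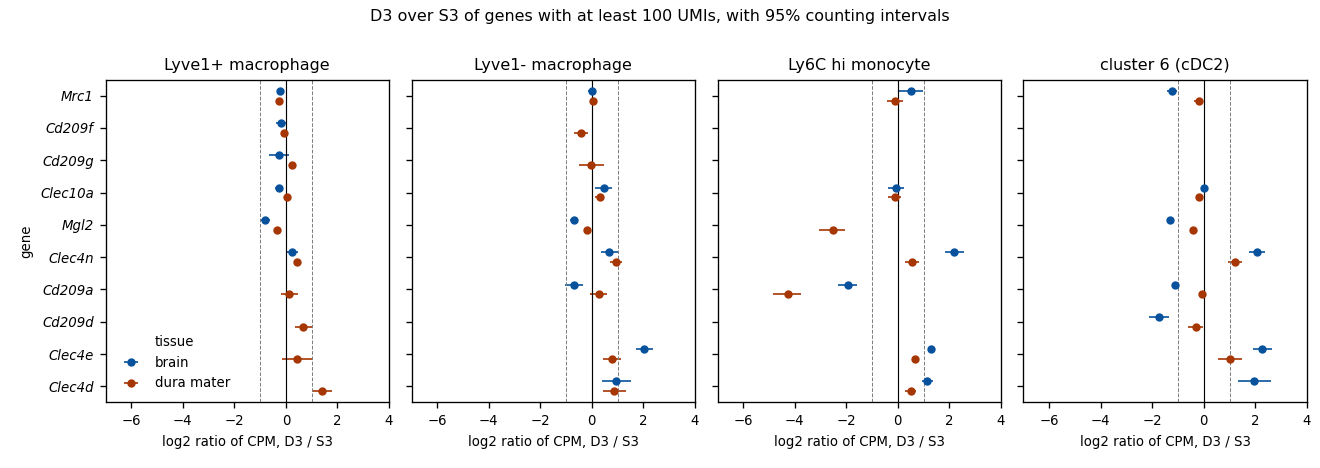
Log2 ratio of CPM at D3 over S3 for each gene in 3 classes of cells and cluster 6, in the brain (blue) and the dura mater (brown), with 95% counting intervals, for genes with at least 100 UMIs in both libraries together. In cluster 6 of the brain 7 of 8 points lay outside the dashed 2-fold lines, and in Lyve1+ macrophage-like cells of the brain none of 6.

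In the dura mater 12 of 60 member and class pairs were past 2-fold between D3 and S3, 6 higher and 6 lower, against 2.2% of all pairs, 1.26% higher and 0.942% lower. In 7 of the 12, no cell held over 20% of the UMIs. Lyve1+ macrophage-like cells had 1 of 10 members past it, against 0.898% of genes: Clec4d, with 23.28 and 60.88 CPM and a ratio of 1.39 (1.02 to 1.78). The other 9 members stayed within 2-fold, among them Cd209f at -0.07 and Cd209g at 0.24. Clec4d was at -0.07 when lectins were kept among the genes of the clustering. In cluster 6 Clec4n had 52.98 and 122.2 CPM (1.21, 0.93 to 1.48) and Clec4e 19.29 and 39.09 (1.02, with 38.54% of UMIs at D3 in 1 cell), whereas Cd209a, Mgl2 and Mrc1 stayed within 2-fold at -0.07, -0.42 and -0.20. Ly6C hi monocyte-like cells had Cd209a at 127.6 CPM at S3 and 6.634 at D3, a ratio of -4.27 (-4.84 to -3.74), with a UMI in 11.87% and 4.231% of cells. The summed granulocyte markers of that class stood at 831.6 and 5437 CPM, and their part was not tested. Mgl2 there differed by -2.53, with 40.49% of the S3 UMIs in 1 cell, and was at 0.18 under a gate on single markers. The other pairs past 2-fold were Mrc1 in proliferating (1.95), gamma-delta T-like (-1.5) and granulocyte-like (-1.18) cells, Clec10a in cDC1-like cells (1.49), Clec4e in granulocyte precursor-like cells (1.07), Cd209d in proliferating cells (-2.60, 71.74% in 1 cell) and Cd209f in granulocyte-like cells (-2.45). A Cd209f UMI was seen in 7.184% (S3) and 5.392% (D3) of the dural granulocyte-like cells, against 9.677% and 15.0% of dural T-like cells. Mrc1 stood at 27.03 and 63.67 CPM in those T-like cells, and the part of free RNA was not tested. Under the gate Mrc1 in gamma-delta T-like cells was at 0.44 and Clec4e in granulocyte precursor-like cells at -0.11.

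Between S3 brain and S3 dura mater, 14 of 51 member and class pairs were past 2-fold, 2 higher in the brain and 12 lower, against 3.26% of all pairs, 1.21% higher and 2.05% lower. In 8 of them no cell held over 20% of the UMIs. In Lyve1+ macrophage-like cells Cd209f differed by -1.05 (-1.2 to -0.90), Cd209g by -1.17 (-1.47 to -0.89) and Cd209d by -2.89 (-4.79 to -1.49, 4 UMIs in the brain), whereas Mrc1 was level at -0.03 (-0.09 to 0.03). Cd209b, which encodes SIGNR1 and is no member, had 19.19 and 114.1 CPM in the same cells. Cd209a was at 39.51 and 41.32 CPM (-0.06). These Cd209a values rest on few cells: 7 of 95 in the brain, with 37.14% of 35 UMIs in 1 cell. In the dura mater 1 cell held 30.95%. Cd209d, Cd209f and Cd209g were thus lower in the brain by over 2-fold in a class whose Mrc1 did not differ by more than counting error. Clec10a, at 785.7 and 1021 CPM, and Mgl2, at 550.9 and 747.4, were also lower in the brain, within 2-fold and with counting intervals that did not overlap. In Lyve1- macrophage-like cells Mrc1 had 361 and 833.8 CPM (-1.21) and Clec10a 48.16 and 160.5 (-1.74). Cd209f, with 0 UMIs against 194, differed by -6.19 with a floor of 3 UMIs for the brain, and its counting interval ended at -5.88. Beside these, the T-like cells of brain and dura mater had 4.691 and 27.03 CPM of Mrc1 and 1.564 and 12.29 of Clec10a. Cd209d in pDC-like cells differed by -1.16. In Ly6C hi monocyte-like cells Mgl2 (-1.60) and Mrc1 (-1.07) were past 2-fold, but both turned direction without the filter on cells. The pairs higher in the brain were Cd209a (2.79) and Mgl2 (3.06) in NK/ILC1-like cells, which turned when doublets were kept. Mrc1 was also lower in brain gamma-delta T-like (-4.68), granulocyte-like (-2.80) and immature granulocyte-like (-2.55) cells, from 4 to 19 UMIs in the brain. The value in granulocyte-like cells was 0.41 under the gate on single markers, and that in immature granulocyte-like cells 0.84 with lectins kept among the genes of the clustering.

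Infiltrating macrophage-like cells, named from Arg1, Gpnmb, Spp1 and others, numbered 1382 in brain D3, 6 in brain S3 and 21 in dura mater D3. The 21 dural cells had 817.1 CPM of Mrc1, seen in 80.95% of them, and 2.09 CPM of Mgl2. The name fits these dural cells less well. Their summed infiltrating macrophage markers stood at 9429 CPM, against 22210 in brain D3, with Gpnmb at 37.61. Their summed monocyte markers were at 4476 CPM, against 1551. Only the brain D3 cells are compared below. Set against the macrophage-like cells of brain S3, Lyve1+ and Lyve1- together, 8 of 9 members were past 2-fold, where 20.2% of genes were. Clec4d was at 192.2 against 14.1 CPM, a log2 ratio of 3.77 (3.38 to 4.19), and Clec4e at 144.8 against 28.46, a ratio of 2.35 (2.07 to 2.64). The uptake lectins were low in the infiltrating cells: Mrc1 had 61.95 against 999.4 CPM (-4.01), Mgl2 13.78 against 413.6 (-4.91), Clec10a 22.47 against 225.3 (-3.33), Cd209a -2.09, Cd209f -6.21 and Cd209g -6.78. Clec4n was within 2-fold at -0.75. Against the macrophage-like cells of brain D3, 8 of 9 were again past it, where 16.5% of genes were, with Clec4d at 2.74 and Clec4e within 2-fold at 0.39. Against Ly6C hi monocyte-like cells of brain D3, 3 of 7 were past it, where 19.0% of genes were: Mrc1 was higher by 1.21 (0.94 to 1.5), Clec4e lower by -1.64 (-1.72 to -1.57) and Clec10a lower by -1.08. Clec4d lay close to the monocyte-like level, at 192.2 and 162.1 CPM. These 3 comparisons share the infiltrating cells. A Clec4d UMI was seen in 78.94% of the infiltrating cells and a Clec4e UMI in 58.68%, against 3.817% and 5.344% of T-like cells of that library.

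In the brain, the class that held most RNA of Clec4d was not the same at S3 and D3. In brain S3 granulocyte-like cells held 54.29% of Clec4d UMIs and 36.89% of Clec4e UMIs. In brain D3 they held 9.327% and 7.391%, and the infiltrating macrophage-like cells 64.96% and 36.74%. In the dura mater granulocyte-like cells held 59.73% of Clec4d UMIs at S3 and 40.35% at D3. In all kept cells of the brain Clec4d was at 95.45 CPM at S3 and 130.8 at D3 and Clec4e at 116.4 and 174.2. Mrc1 over all kept cells was at 233.2 and 115 CPM in the brain and at 417.5 and 640.4 in the dura mater. In such totals the number of cells of a class and the RNA per cell cannot be told apart. The Lyve1+ class made up 7.764% of kept cells in dura mater S3 and 15.674% in dura mater D3.

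**Figure D5:**
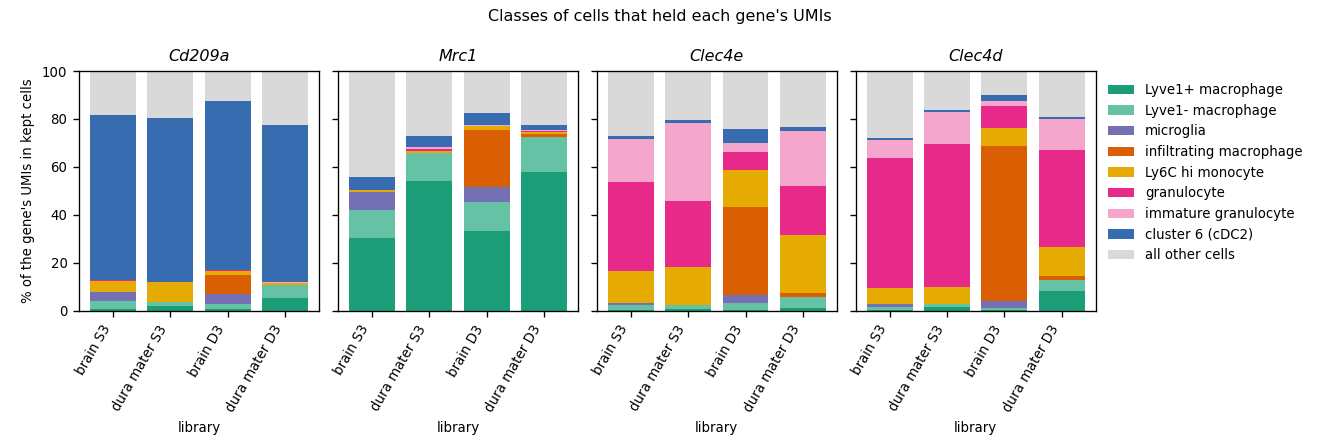
Share of the UMIs of Cd209a, Mrc1, Clec4e and Clec4d, in percent of the gene's UMIs in kept cells of a library, by the class of cells that held them, with unnamed and smaller classes in grey. The infiltrating macrophage-like cells (orange) of brain D3 held 64.96% of Clec4d and 36.74% of Clec4e UMIs.

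Clec4d (chr6:123262111-123275265, plus strand) and Clec4e (chr6:123281789-123289870, minus strand) lie 6.5 kb apart with 0 coding genes between them, and Clec4n lies 34.8 kb from Clec4e in the same cluster. Their upstream windows are shown because both genes were high in granulocyte-like and infiltrating cells. Capitals mark a match to the C/EBP motif TTGCNNAA on the reverse strand, 66 bases before the start of Clec4e, and the window of Clec4d has none (RefSeq, GRCm38.p6, 5′ to 3′ on the gene's strand):
Clec4e chr6:123289872-123290121 minus: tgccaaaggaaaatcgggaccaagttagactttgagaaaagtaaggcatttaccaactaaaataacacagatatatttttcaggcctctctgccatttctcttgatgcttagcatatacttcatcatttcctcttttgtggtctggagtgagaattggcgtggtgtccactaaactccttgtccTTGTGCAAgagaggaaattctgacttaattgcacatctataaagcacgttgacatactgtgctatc
Clec4d chr6:123261857-123262106 plus: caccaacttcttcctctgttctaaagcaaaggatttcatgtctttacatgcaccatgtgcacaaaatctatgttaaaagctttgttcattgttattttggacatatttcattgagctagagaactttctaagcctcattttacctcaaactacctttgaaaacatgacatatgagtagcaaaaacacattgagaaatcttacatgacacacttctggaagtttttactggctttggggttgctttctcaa
Such a match is in 9.56% of the 32851 promoters. The NF-kB motif GGANTTNCC, in 3.15% of promoters, was in 0 of the 8 members' windows, the PU.1 motif AGGAAGT, in 7.69%, in 3 of them (Mrc1, Cd209d and Mgl2), and the MAF motif TGCTGA, in 16.1%, in 2 (Cd209a and Cd209d). Nothing about the factors follows from these letters.

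The genes around the receptors were taken from lists. Of 37 other C-type lectin genes 35 were listed. Pooled over classes, 26 of 134 comparable pairs of these were past 2-fold between D3 and S3 brain (12 higher and 14 lower) and 7 of 130 in the dura mater, where all genes gave 4.55% and 2.2%. In cluster 6 of the brain Cd72, a lectin-like co-receptor of B cells, had 38.16 and 206.9 CPM (2.44), and Clec4b1, a lectin of dendritic cells, 219.6 and 94.94 (-1.21). Of the 18 genes of the signalling chain, among them Fcer1g, Syk and Card9, 4 of 198 pairs were past 2-fold in the brain (2.02%) and 1 of 221 in the dura mater (0.452%), shares below those of all genes. Of the 12 cytokine targets, 39 of 93 pairs were past it in the brain (33 higher and 6 lower), with Cxcl2 in Ly6C hi monocyte-like cells at 208.2 and 1374 CPM (2.72), and 23 of 88 in the dura mater (11 higher and 12 lower), or 41.9% and 26.1%. In cluster 6 of the brain Cxcl2 was higher (1.55), while Tnf (-1.18) and Ccl2 (-1.16) were lower. In infiltrating macrophage-like cells Clec4b1 was at 3.782 CPM against 103.5 in the macrophage-like cells of brain S3 (-4.78), and the membrane lectin Cd93 at 202.4 against 61.53 (1.72).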

How the data were processed

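CD45+ cells of 4 libraries, 1 for each tissue and operation, were analysed. The authors mapped the reads to mm10 with Cell Ranger 3.1.0 and normalized them in Seurat 3.1.0, per the submitters' processing notes. What the authors deposited is, for each gene and cell, a natural log: the gene's UMIs are divided by those of the cell, multiplied by 10000 and increased by 1 before the log. UMIs were recovered from the values, of which 0 were not whole within 1e-06. Genes that a file does not list were taken as 0.

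Cells with over 1000 and under 6000 genes and no more than 7% of UMIs mitochondrial entered the analysis. Scrublet scores (scanpy 1.11.5) were used to remove doublets at 0.8% per 1000 barcodes. Seurat 5.3.0 (R 4.3.3) clustered the cells on 2500 variable genes, less 32 lectin genes, regression of mitochondrial share and UMI total, 30 components, 20 neighbours and resolution 0.6. UMIs were summed by class and library and given per 1000000 UMIs with exact Poisson 95% intervals. Ratios carry exact conditional binomial intervals and shares Clopper-Pearson intervals. A gene was compared if its UMIs in the groups summed to at least 100, in classes of at least 20 cells, and a floor of 3 counts stood for 0. UMIs of a few cells are not independent, so intervals are too narrow where 1 cell holds much of a value. The calculation was tested on simulated data.

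All 10 members were measured in every comparison, though not all are named in each. List genes are named when past 2-fold with at least 200 UMIs, at most 5 for a list, direction and comparison, and the 3 genes most like each member by r. The members and lists were chosen with earlier results of these data known. The Flt3 and Cd209f splits of cells were chosen after values were seen. Promoter sequences are RefSeq entries on GRCm38.p6, and 8 of the 10 members matched.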

Additional observations from a re-analysis of the deposited data

Results flagged for a closer look

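In 3 cases the D3 over S3 difference of a member in a class went one way in the brain and the other way in the dura mater, each beyond its counting interval. Mrc1 in cDC1-like cells had a log2 ratio of -3.13 (-3.81 to -2.50) in the brain and 0.86 (0.54 to 1.19) in the dura mater. In the brain 1 cell held 45.45% of the S3 UMIs. Clec4d in immature granulocyte-like cells had -0.47 (-0.74 to -0.20) and 0.24 (0.07 to 0.41). Clec10a in proliferating cells had -0.50 (-0.87 to -0.14) and 0.92 (0.70 to 1.14). The summed T cell markers of that class stood at 1179 CPM in brain S3 and 171.4 in brain D3. In the dura mater they were at 199.2 and 105.6. The part of the make-up of the class in its ratios was not tested. With 1 library in each condition the difference between tissues was not tested.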

How the results depend on the processing

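No paired analysis was possible because each condition had 1 library, and for the same reason no replicate could be left out. The counts of member pairs past 2-fold moved by over 1.5 times under few settings. Between D3 and S3 brain there were 20 of 51 pairs, 12 of 32 at clustering resolution 0.3, 4 of 17 with cells thinned to 2000 UMIs and 40 of 78 with a minimum of 20 UMIs. In the dura mater there were 12 of 60, 6 of 51 with classes from a gate on single markers, 0 of 21 thinned and 36 of 109 with the lower minimum. Between S3 brain and dura mater there were 14 of 51, 9 of 50 with doublets kept, 8 of 49 with lectins kept among the clustering genes and 2 of 17 thinned. Between Lyve1+ and Lyve1- cells there were 26 of 37 and 15 of 19 thinned. Fewer UMIs pass the minimum after thinning by its construction. The share of Lyve1+ cells of dura mater S3 with Mrc1 was 99.63% and 97.37% thinned. Of the 30 most alike genes, 16 stayed with Spearman's rho and 18 with the S3 libraries alone.

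Some single log2 ratios turned direction, and the cause was not tested. Without the cell filter, Mrc1 and Mgl2 in Ly6C hi monocyte-like cells of S3 brain over dura mater were 0.32 and 0.13. With doublets kept, Cd209a in NK/ILC1-like cells was 0.81 (brain D3 over S3) and -1.91 (S3 brain over dura mater), and Mgl2 -0.69. With lectins kept, Clec4d in Lyve1+ cells of the dura mater was -0.07, Mrc1 in immature granulocyte-like cells (S3) 0.84, and Clec4e in Lyve1+ over Lyve1- cells 2.05 in brain S3 and 0.88 in dura mater S3. Under the gate, Mgl2 was 0.18 (dura mater D3 over S3) and 2.05 (S3) in Ly6C hi monocyte-like cells and -0.43 in NK/ILC1-like cells (S3), Mrc1 0.44 in gamma-delta T-like cells (dura mater) and 0.41 in granulocyte-like cells (S3), and Clec4e -0.11 in granulocyte precursor-like cells and 0.29 in Lyve1+ over Lyve1- cells of brain S3. With the T-like level subtracted, Mrc1 in Ly6C hi monocyte-like cells (S3) was 0.16. With 2500 cells drawn from each library, Clec4e in Lyve1+ over Lyve1- cells was 2.38 in brain S3 and 0.44 in dura mater S3. An alternative chosen after seeing the data counted cluster 11 as Lyve1+ and gave 1.57 and 0.34. At resolution 0.3 the Lyve1+ and Lyve1- cells were not split. No other ratio past 2-fold turned under the alternatives that were run. The lowest count of a member over all kept cells of a library was 168 UMIs, for Cd209g in brain D3.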

Other observations

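Within Lyve1+ macrophage-like cells, the cells with a Cd209f UMI also differed from the rest in genes outside the lectins, a split made after its values were seen and given as a description. H2-Ab1, a chain of MHC class II, had 38.97 CPM in cells with Cd209f and 790.8 in cells without it in brain S3, and 48.11 against 282.7 in brain D3. In the dura mater the order was not the same, with 1160 against 881.3 CPM at S3 and 1021 against 956.5 at D3. Ccl8, a monocyte chemokine, had 2428 CPM in dura mater S3 cells with Cd209f and 1119 in those without it, and 5365 against 2899 in dura mater D3, whereas in the brain it had 246.8 against 598.7 at S3 and 256.6 against 430.4 at D3. Pla2g2d stood at 71.45 against 244 CPM in brain S3, 441.2 against 310.6 in dura mater S3, 82.86 against 70.33 in brain D3 and 270.9 against 204.2 in dura mater D3. Lyve1 itself, at 896.4 against 524.3 CPM in brain S3 and 563.5 against 540.2 in dura mater D3, was present on both sides of the split. The brain values rest on 34 and 42 cells with Cd209f.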
